A study of Mus musculus with 2 samples.

Results

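Potassium, sodium and calcium channel genes were taken as every gene on the probe panel whose symbol begins with Kcn, Scn or Cacn, followed by optional letters and a number. The rule found 136 of the 19465 genes: 92 Kcn, 18 Scn and 26 Cacn genes. It used symbols only and no measured value. The set holds pore subunits and their auxiliary subunits, the epithelial sodium channel genes (Scnn1) and Scnm1, which encodes a splicing factor named after a sodium channel and is no channel subunit.

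These channels pass ions across the cell membrane through a pore that opens with voltage, with intracellular calcium or sodium, or at rest. In the cerebellum they set the firing of granule cells, Purkinje cells and the neurons of the deep nuclei, and in glia an inward rectifier takes up potassium. Epithelial, vascular and immune cells use a smaller repertoire, mostly potassium channels, for membrane potential, volume and calcium entry.

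The data were spatial transcriptomes of 1 cerebellar section from each of 2 mice. Organoids from breast tumors of HP genotype (a HER2 and a PIK3CA mutation together, induced by Cre in the mammary gland) had been injected into the cerebellum, and neither mouse was treated. The labels name the organoids HP-F1 +cre for section 1 and HP-B6 +cre for section 2, while the cell line field reads B6-HP in each. According to the methods the host mice were 5 months old and the organoids were luciferase-labeled clones placed directly in the brain, and no tumor-free section was analysed here. Every comparison below was therefore made between regions of the same sections, tumor, a 2-step edge and the surrounding neural tissue. Each spot covers several cells.

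Section 1 held 3406 spots under tissue with 63986887 unique molecular identifiers (UMIs, counted molecules), and section 2 held 4017 spots with 71878333. The sections share 3096 spot barcodes, because a barcode marks an array position. Regions were set from marker genes that include no channel gene. Tumor took 735 spots in section 1 and 889 in section 2, the edge 242 and 356, and neural tissue 2334 and 2684. Tumor spots were much deeper, with a median of 55035 and 40553 UMIs per spot against 7506.5 and 9615 in neural spots.

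**Figure D1:**
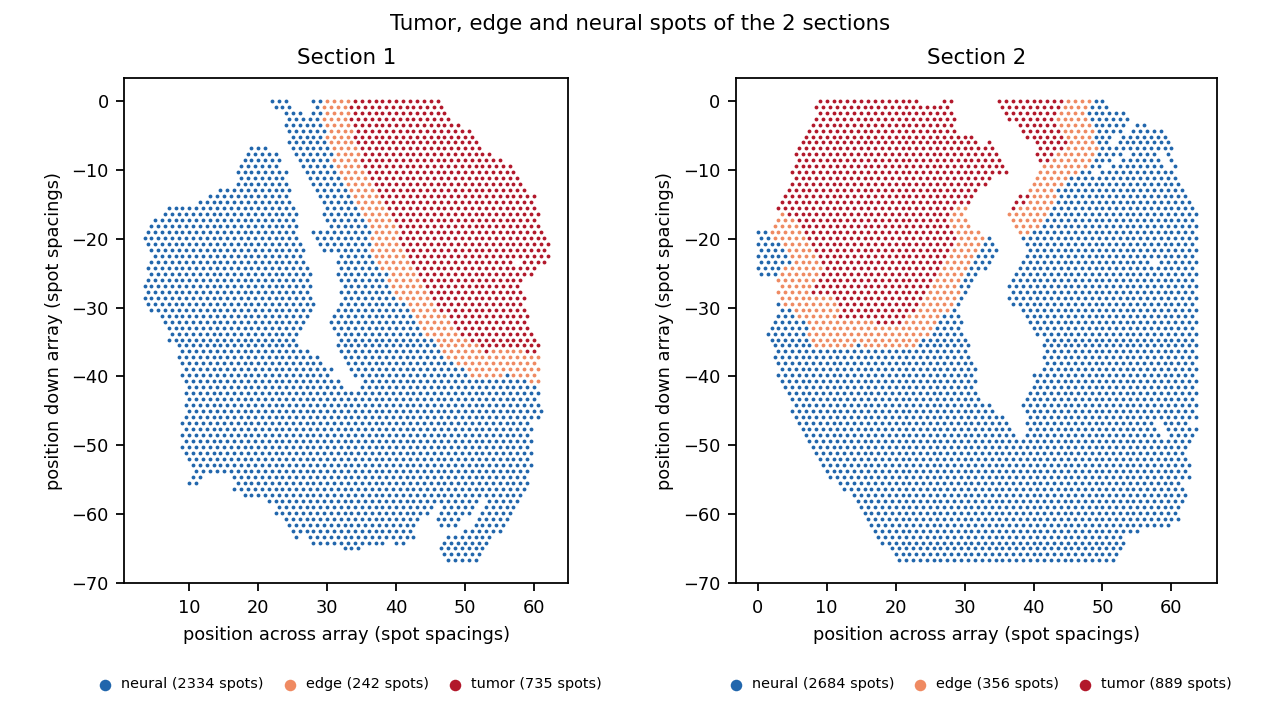
Position of tumor (red), edge (orange) and neural (blue) spots on the capture array of each section, with axes in spot spacings. In section 1 the tumor lies at one side of the tissue with a single border (735 spots), and in section 2 it lies at the top on both sides of a gap (889 spots).

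The 2 tumors differed in their cell type markers. The 7 epithelial markers (keratins, Epcam, claudins and Cdh1) summed to 49.5 CPM (UMIs of a gene relative to all UMIs of the library, after TMM scaling) in the tumor of section 1 and to 11173 in that of section 2. The 6 fibroblast markers summed to 61939 and 572, and the 6 T cell markers to 288 and 11.8, in the same order. The macrophage list gave 5427 and 1461. The epithelial markers that define breast tumor cells were thus nearly absent in section 1, where its neural spots had 20.8 CPM, so "tumor" below means the region outside the neural tissue in that section. No listed marker of any cell type was at 0 in both tumors.

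Channel genes took a far smaller part of the RNA in tumor than in neural tissue. Their share of all UMIs was 0.125% in the tumor, 0.321% at the edge and 0.861% in the neural spots of section 1. The shares of section 2 were 0.156%, 0.338% and 0.903%. The 95% Wilson intervals of these shares, which cover counting error only, reached at most 0.00498 percentage points to either side, so the order of the 3 regions was the same in both sections and lay outside counting error. Levels are relative to the total, and in bulk spots fewer cells of a type and less RNA per cell cannot be told apart.

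Of the 136 genes, 79 were called lower in tumor than in neural spots, 3 were called higher and 54 were not called (edgeR's quasi-likelihood test with section as a block, called at a Benjamini-Hochberg adjusted p below 0.05 over 19229 genes). Over all genes tested 30.7% were called, 15.8% lower and 14.9% higher. The median log2 fold change of the channel genes was -1.90, against -0.12 for all genes. The direction was the same in each section for most of them, with 106 lower in both, 6 higher in both and 24 split between the sections. All 136 passed the filter on low counts. Their UMIs summed over the 6 libraries ranged from 69 to 43921 with a median of 2048.5, and genes above it fell further. The sum includes the neural libraries, so this split is not independent of the fall. Of the 68 genes above the median 52 were called lower, with a median log2 fold change of -3.28, and of the 68 below it 27 were, with a median of -0.85.

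Counted per spot without scaling, the picture was more even. A tumor spot held 66.8 channel UMIs on average in section 1 and 62.4 in section 2, where a neural spot held 73.1 and 98.8, while the median total per spot was 55035 and 40553 UMIs in tumor and 7506.5 and 9615 in neural tissue. By UMIs per spot 56 of the 136 genes were lower in tumor in both sections, 59 were higher in both and 21 were split. The same counts over all genes are not given here. Tumor spots were much deeper, so these counts do not show how channel genes compare with other genes. The median log2 ratio was 0.46 in section 1 and -0.32 in section 2. The calls are thus of a gene's share of the RNA. Of the 79 genes called lower, 56 were also lower per spot in both sections, and 7 were higher in both (Kcnj13, Kcng1, Kcnu1, Kcnh6, Kcnh8, Kcng3 and Kcnip2, all under 0.2 UMIs per spot). Among 19 neuronal and glial markers that had no part in placing the regions, 14 were called lower and the median log2 fold change was -3.53.

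**Figure D2:**
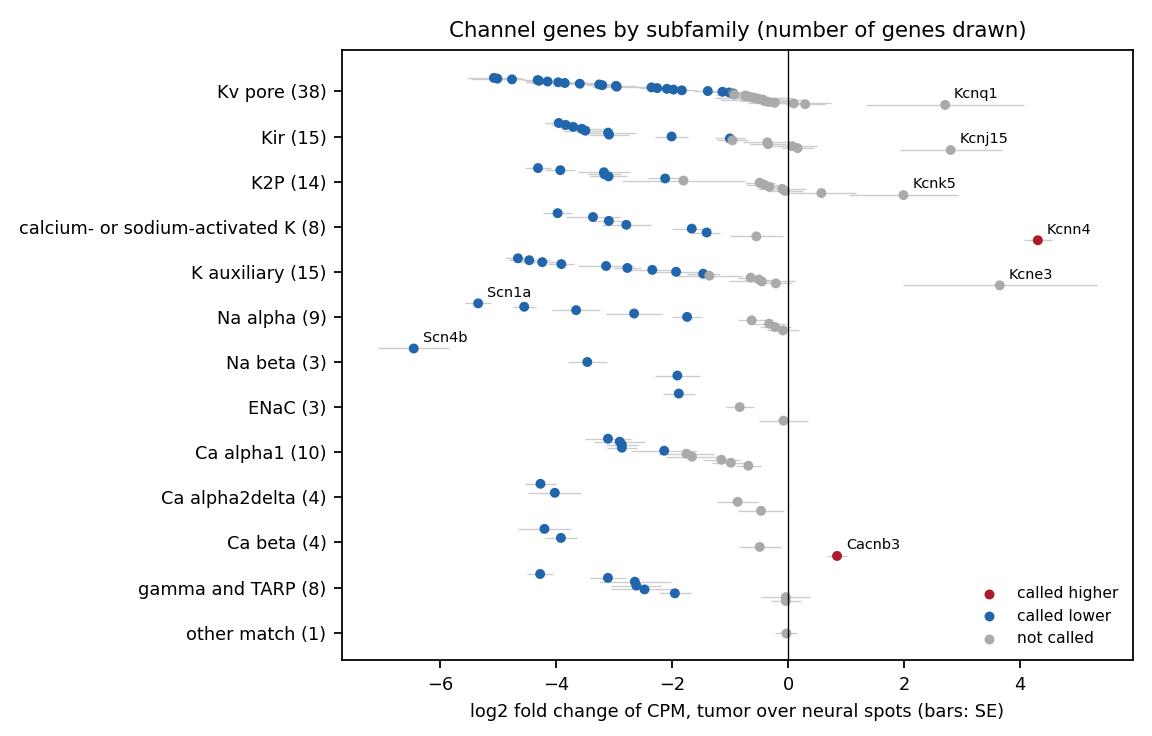
Log2 fold change of tumor over neural spots for 132 of the 136 channel genes, by subfamily, with bars for the standard error from the fit over 6 libraries. Red points were called higher (2 of those drawn), blue lower (76) and gray not called (54), and the wide bars of Kcne3, Kcnq1, Kcnj15 and Kcnk5 belong to genes that differed between the sections.

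Among pore subunits, 24 of the 40 voltage-gated potassium channel genes were called lower, with a median log2 fold change of -1.61, as were 9 of 15 inward rectifiers (median -2.01) and 6 of 14 two-pore domain leak channels (median -1.15). For the calcium- or sodium-activated potassium channels the count was 6 of 8 (median -2.23). Of the sodium channel alpha subunits 5 of 10 were called lower, and of the calcium channel alpha1 subunits also 5 of 10, although all 10 of the latter were lower in both sections. Auxiliary subunits moved likewise. The count was 9 of 15 for potassium channels, 2 of 4 each for calcium channel alpha2delta and beta subunits, and 6 of 8 for the gamma subunits and their relatives that traffic AMPA receptors (TARPs). The epithelial sodium channel had 1 of 3 called lower.

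Among the 3 genes called higher were a potassium channel pore and a calcium channel subunit. Kcnn4 encodes the intermediate-conductance calcium-activated potassium channel of epithelial, immune and red blood cells (chr7:24369826-24385212 in GRCm38). In section 1 it measured 62.0 CPM in tumor, 28.1 at the edge and 3.34 in neural spots. The levels of section 2 were 50.7, 19.6 and 2.40 CPM. The 2 sections were close to each other in every region. The log2 fold changes were 4.31 ± 0.24 (SE, 2 sections) for tumor over neural (edgeR adjusted p = 0.00267) and 3.05 ± 0.23 for edge over neural (adjusted p = 0.0357). Tumor over edge, at 1.26 ± 0.21, missed the threshold (adjusted p = 0.0566). Per spot, without scaling, Kcnn4 had 2.92 and 1.76 UMIs in tumor and 0.033 and 0.027 in neural tissue. It was the only member of its subfamily called higher.

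Cacnb3 encodes an intracellular beta subunit that carries high-voltage calcium channels to the membrane (chr15:98628436-98644536). It stood at 60.3 CPM in tumor, 45.1 at the edge and 34.4 in neural spots of section 1, and at 93.9, 60.9 and 51.1 CPM in section 2. Over whole regions its rise was small but alike in both sections, with a log2 fold change of 0.84 ± 0.18 (edgeR adjusted p = 0.0261). The call was lost with library sizes alone (0.53, adjusted p = 0.0924) and without the section block (adjusted p = 0.139). Inside the tumor the sections differed, here in CPM by library size alone. More than 8 steps inside, Cacnb3 had 40.5 CPM in section 1 and 78.5 in section 2. Neural spots at 3 to 4, 5 to 8 and over 8 steps outside had 53.6, 55.0 and 35.5 CPM in section 1. In section 2 they had 68.0, 55.2 and 50.3. The related Cacnb4 and Cacnb2 fell, Cacnb4 from 80.6 to 6.76 CPM in section 1 and from 128 to 6.77 CPM in section 2. None of the 10 calcium channel pore subunits was higher in the tumor of either section.

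**Figure D3:**
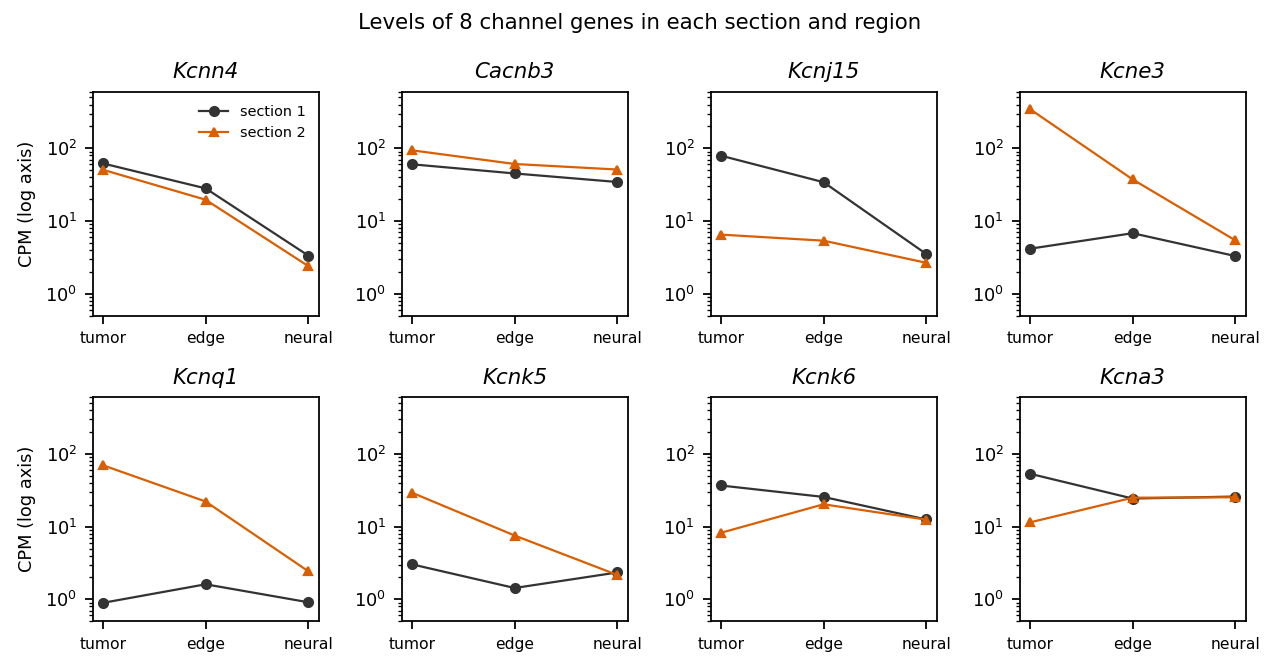
CPM (log axis) of 8 channel genes in tumor, edge and neural spots, with circles for section 1 and triangles for section 2. Kcnn4 and Cacnb3 decline from tumor to neural tissue in both sections, Kcnj15 is highest in the tumor of section 1 (79.3 CPM), and Kcne3 (347 CPM), Kcnq1 and Kcnk5 are high in the tumor of section 2 alone.

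A second set of genes was high in 1 tumor only. All but Kcna3 and Kcnk1 in this paragraph and the next fell outside the naming rule and were picked after their values were seen. Kcne3, an auxiliary subunit that associates with the pore encoded by Kcnq1, measured 4.16 CPM in tumor and 3.30 CPM in neural spots of section 1. In section 2 it measured 347 and 5.43 CPM. The fitted log2 fold change was 3.65 ± 1.68 (edgeR adjusted p = 0.162). Kcnq1 itself was at 0.895 and 0.912 CPM in section 1 and at 69.9 and 2.43 CPM in section 2. Its fit over both sections gave an edgeR adjusted p of 0.191. Kcnk5, a two-pore domain channel of epithelia, had 3.03 and 2.34 CPM in section 1 and 29.3 and 2.16 CPM in section 2. Its fit over both sections gave an edgeR adjusted p of 0.171. These 3 genes were near their neural level in the section with few epithelial markers and high in the other. DESeq2 called all 3 higher, with Kcnj15, so its count of channel genes higher in tumor was 7. That count has no share over all genes beside it. Kcnk1, a leak channel with the most UMIs of its subfamily, was far lower in the tumor of section 1 (10.1 against 163 CPM). It was near its neural level in section 2 (191 against 243 CPM). The fit over both sections did not call it (edgeR adjusted p = 0.245). With 1 mouse a section, the difference between the sections was not tested, and neither was the part of their unlike cell makeup.

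Kcnj15, an inward rectifier, went the other way. It had 79.3 CPM in tumor and 3.52 CPM in neural spots of section 1, and 6.51 and 2.66 CPM in section 2. Its log2 fold change was 2.80 ± 0.88 (edgeR adjusted p = 0.0748), with 4.31 when section 2 was left out and 1.15 when section 1 was. Kcna3, the voltage-gated potassium channel known from T cells and macrophages, was the 1 gene beyond a log2 ratio of 1 in opposite directions. It was at 53.4 CPM in tumor and 25.9 in neural spots of section 1, and at 11.4 and 25.3 CPM in section 2. Kcnk6, another leak channel, showed 36.8 against 12.5 CPM in section 1 and 8.22 against 12.4 CPM in section 2. Its fit over both sections gave an edgeR adjusted p of 0.481. The T cell and macrophage markers were more abundant in the tumor of section 1, and a link to Kcna3 or Kcnk6 was not tested.

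Where these genes lay inside the tumors was described by ranking the tumor spots of a section by the share of UMIs from a marker list and comparing the top with the bottom 20% of spots (147 spots each in section 1 and 177 in section 2). These levels are CPM of the summed spots. The ratios have no test, since spots of 1 section share a mouse. In section 2 Kcne3 was 4.01 times higher in the spots richest in epithelial markers, 393 against 97.8 CPM. Kcnk5 was 2.40 times, Kcnq1 1.84 times and Kcnn4 1.70 times higher there. Those spots were also the deeper ones, with a median of 45381 against 31687 UMIs. Kcnk6 and Kcna3 ran opposite, at ratios of 0.20 and 0.45, and were 7.39 and 3.53 times higher in the macrophage-rich spots. The macrophage ratios rest on 14 and 83 UMIs for Kcnk6 and on 36 and 102 for Kcna3. Kcnk6 was also higher in spots rich in mural (2.86), fibroblast (2.61), T cell (1.99) and endothelial markers (1.94). For Kcna3 these lists gave 0.98, 1.26, 0.87 and 0.88. The macrophage ratios of section 1 were smaller, 1.26 for Kcnk6 and 1.25 for Kcna3. The T cell list gave nearly the same there, 1.24 and 1.21. The mural list gave 0.84 and 0.69, the fibroblast list 0.79 and 0.745 and the endothelial list 0.95 and 0.85. In section 2 both genes also rose toward the border. Kcnk6 had 5.31 CPM over 8 steps inside, 13.1 at 3 to 4 steps inside and 20.9 at 1 to 2 steps outside. Kcna3 had 7.44, 14.9 and 26.1 in these bins. The macrophage list itself summed to 4377 CPM at the edge of section 2 and 1461 in its tumor. Position and macrophage content were not separated or tested. In section 1 Kcnj15 was 4.02 times higher in the spots richest in endothelial markers, 133 against 33.1 CPM. Kcnj15 was also 2.92 times higher in mural-rich and 2.12 times higher in fibroblast-rich spots there. In section 2 its ratios were 1.57 for the endothelial, 2.51 for the mural and 2.32 for the fibroblast list. For Kcnn4 the macrophage list gave 1.44 in section 1 and 0.62 in section 2.

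The 10 genes with the largest fall included Scn4b, Scn1a, Kcnc2, Kcna2, Kcnc1, Kcnab1, Scn8a and Kcnab3, all known from neurons. Scn4b encodes a sodium channel beta subunit of fast-firing neurons. It dropped from 254 CPM in neural spots to 9.67 at the edge and 2.97 in tumor in section 1, and from 199 to 25.2 and 2.17 CPM in section 2. The log2 fold change was -6.46 ± 0.61 (edgeR adjusted p = 0.00468), the lowest of the 136. Scn1a and Scn8a, the sodium channel pores of inhibitory neurons and of axon initial segments, followed at -5.34 ± 0.22 and -4.55 ± 0.20 (both adjusted p = 0.00267). Scn1a went from 244 to 5.60 CPM in section 1 and from 281 to 7.41 CPM in section 2.

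Among potassium channels, Kcnc1 and Kcnc2, which let neurons repolarize quickly and fire at high rates, both fell. Kcnc1 went from 290 to 10.3 CPM in section 1 and from 391 to 14.9 CPM in section 2, a log2 fold change of -4.76 ± 0.23 (edgeR adjusted p = 0.00267). Kcnc2 changed by -5.07 ± 0.47. Kcna2, an axonal channel, changed by -5.01 ± 0.45, and the beta subunits that bind such channels fell with it, Kcnab1 at -4.66 ± 0.22 and Kcnab3 at -4.46 ± 0.36. Kcnab2 changed less (-3.14 ± 0.49, adjusted p = 0.0134). Kcnt1, a sodium-activated channel, was at -3.97 ± 0.26. In all, 19 of the 79 channel genes called lower fell by at least 4 on the log2 scale. The same count over all genes is not given here.

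A glial channel and several calcium channel subunits fell as well. Kcnj10 encodes the inward rectifier of astrocytes and oligodendrocytes. It measured 599 CPM in neural spots, 114 at the edge and 53.8 in tumor in section 1, and 410, 160 and 35.6 CPM in section 2 (log2 fold change -3.50 ± 0.37, edgeR adjusted p = 0.00532). Cacna1a, the pore of the P/Q-type calcium channel of Purkinje and granule cells, went from 140 to 26.3 CPM and from 305 to 22.5 CPM (-3.11 ± 0.40, adjusted p = 0.00806). Cacna2d2, an alpha2delta subunit prominent in Purkinje cells, changed by -4.27 ± 0.27. Cacna2d1 did not pass the test (-0.47 ± 0.40, adjusted p = 0.394), with 67.6 against 57.6 CPM in section 1 and 40.5 against 94.7 CPM in section 2. Cacng7, a TARP with high counts, changed by -2.48 ± 0.58 (adjusted p = 0.0369), a call that was lost with regions placed by neural markers alone (adjusted p = 0.0816). Scnn1a, the epithelial sodium channel subunit with most UMIs, lay between 5.11 and 12.2 CPM in every region. Scnm1, the splicing factor, lay between 31.0 and 49.0 CPM in every region (-0.04 ± 0.19, adjusted p = 0.879).

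RefSeq (GRCm38.p6) promoter windows, 250 bases before to 50 after a start, were at hand for 99 of the 136 genes and for 27025 genes in all. The 250 bases before the start are shown for 3 genes that mark the contrast, the lowest member and a pair of inward rectifiers on opposite sides, Kcnj10 of neural tissue and Kcnj15 of the tumor of section 1. Capitals mark CG dinucleotides. Scn4b lies at chr9:45138374-45138623, Kcnj10 at chr1:172340960-172341209 and Kcnj15 at chr16:95257308-95257557, all on the plus strand.
Scn4b: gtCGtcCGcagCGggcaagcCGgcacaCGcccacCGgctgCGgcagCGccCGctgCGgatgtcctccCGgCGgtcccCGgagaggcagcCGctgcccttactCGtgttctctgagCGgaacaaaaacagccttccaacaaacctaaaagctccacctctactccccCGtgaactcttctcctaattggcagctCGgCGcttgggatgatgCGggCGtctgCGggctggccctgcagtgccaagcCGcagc
Kcnj10: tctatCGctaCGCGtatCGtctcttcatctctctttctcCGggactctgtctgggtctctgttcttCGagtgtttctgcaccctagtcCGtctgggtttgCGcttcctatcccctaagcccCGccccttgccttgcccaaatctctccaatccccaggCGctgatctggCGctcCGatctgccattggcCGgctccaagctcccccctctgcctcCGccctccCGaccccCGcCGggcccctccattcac
Kcnj15: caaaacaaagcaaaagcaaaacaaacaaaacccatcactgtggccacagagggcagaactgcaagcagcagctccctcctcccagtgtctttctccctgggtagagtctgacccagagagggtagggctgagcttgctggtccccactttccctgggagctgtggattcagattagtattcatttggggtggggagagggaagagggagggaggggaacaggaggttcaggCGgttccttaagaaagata

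The Scn4b stretch holds 23 CG dinucleotides, that of Kcnj10 17 and that of Kcnj15 1. Taking each gene's richest window of 300 bases, the median was 16 CG dinucleotides over the 99 channel genes and 8 over all genes. In this paragraph all genes means the 27025 with a window, which include genes not on the panel. The median was 18 for the 57 genes called lower and 17.5 for the 2 called higher that had a window (6 and 29). For the 40 not called, Kcnj15 among them, it was 9.5. Of all 54 channel genes not called, 41 were at or below the median of UMIs. Low counts and CG content were not separated. Over single windows, 135 of channel genes and 32851 in all, the medians were closer, at 9 and 7. Searched on both strands, TATAAA was in a window of 7 of the 99 genes (7.07%, against 15.7% of all genes) and the AP-1 site TGACTCA in 3 (3.03%, against 5.95%). These matches describe letters in the windows only.

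At the edge most of the channel genes called lower in tumor lay between the other regions. Not all 136 did. For edge over neural spots 95 were lower in both sections and 18 were higher in both. For tumor over neural spots 6 were higher in both. The edge pools spots of both classes, 118 inside and 124 outside the border in section 1 and 175 and 181 in section 2. A level between the other regions is therefore largely set by how the edge was defined. For edge over neural spots 25 were called lower and 2 higher (Kcnn4 among them), with a median log2 fold change of -0.85 against -0.03 for all genes, of which 7.29% were called, 3.62% lower and 3.66% higher. For tumor over edge 32 were called lower and 1 higher, with a median of -0.98 against 0.01 for all genes, of which 3.8% were called, 3.53% lower and 0.276% higher. Of the 79 genes lower in tumor than in neural tissue, 68 had an edge level between the other regions in both sections. All 25 and all 32 were among those 79, and 17 were called lower in all 3 comparisons, Scn1a and Kcnc1 among them. The comparisons share libraries, so these counts are not independent of each other. The share of all genes called lower in all 3 comparisons is not given here. Regions placed by neural markers alone left 0 channel genes, and 0 of all genes, called between tumor and edge by edgeR, where 45 channel genes were lower at an unadjusted p below 0.05. DESeq2 on the regions as reported called 58 lower, a count with no share over all genes beside it.

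Across the border the change was graded, here in CPM by library size alone. Deeper in the tumor of section 1 it was not, with Kcnn4 at 45.8 CPM over 8 array steps inside and 68.8 at 5 to 8 steps. Kcnn4 then held 62.5 CPM at 3 to 4 steps inside, 41.0 at 1 to 2 steps inside and 18.8 at 1 to 2 steps outside. Farther out it declined to 10.4, 5.61 and 2.77 beyond 8 steps. In section 2 the inner bins held 46.8 and 39.6 CPM, and the series from 3 to 4 steps inside was 39.9, 25.8, 9.25, 5.20, 3.32 and 2.07. Kcnn4 was thus still above its far level several steps into the neural tissue, on few UMIs. The bins at 3 to 4, 5 to 8 and beyond 8 steps outside held 19, 16 and 42 UMIs in section 1. In section 2 they held 12, 11 and 49. Kcne3 in section 2 fell from 347 in the tumor core to 48.8 at 1 to 2 steps inside and 18.1 just outside.

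Neuronal genes rose outward at unlike rates, and not all rose to the last bin. Kcnc1 in section 1 stood at 147 CPM just outside (1 to 2 steps) and at 337 by 5 to 8 steps, close to its 360 beyond. In section 2 it had 157, 350 and 419 in these bins. Cacna1a had 161, 225 and 152 in section 1 and 184, 298 and 319 in section 2. Kcnt1 in section 1 had 133 at 5 to 8 steps and 113 beyond, and Kcnk1 had 212 and 193. Scn4b had 20.8 just outside, 114 at 5 to 8 steps and 361 beyond 8 steps, and in section 2 44.2, 87.8 and 234. Scn1a and Kcnj10 also went on rising in both sections, Kcnj10 from 189 just outside to 789 beyond 8 steps in section 1 and from 215 to 449 in section 2. Distance and layer go together, since the bins hold different parts of the cerebellum, and their parts were not tested.

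**Figure D4:**
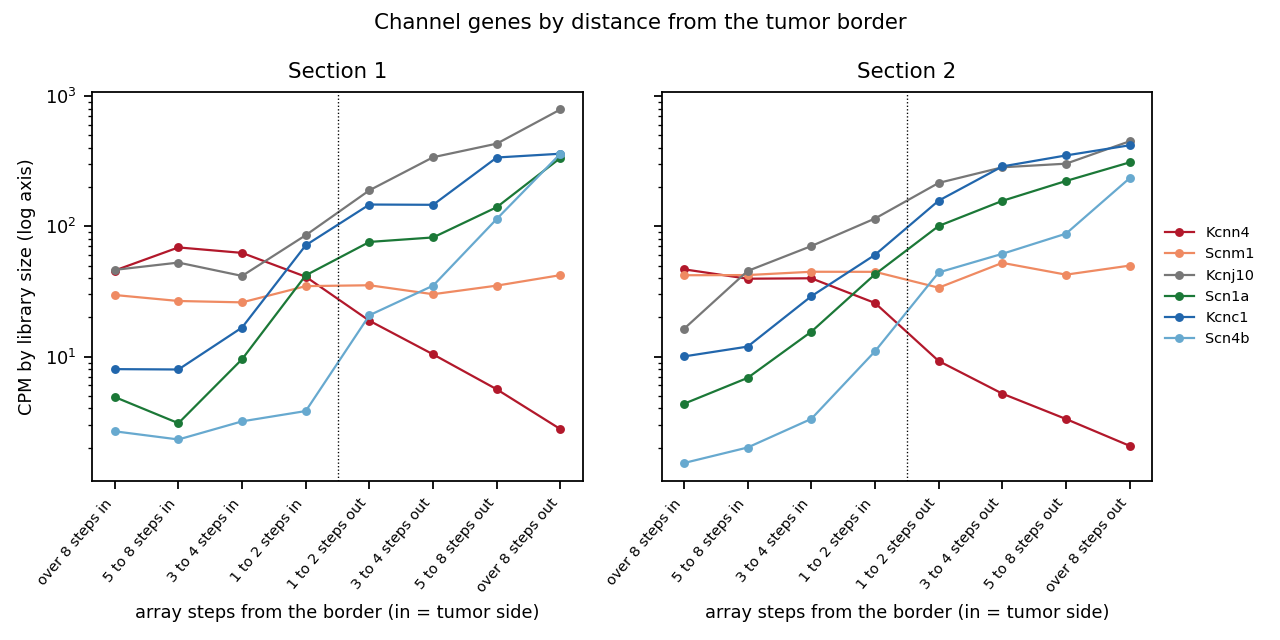
CPM (log axis) of 6 channel genes in bins of distance from the tumor border, counted in array steps, with the tumor side at left of the dotted line and 1 panel a section. Kcnn4 falls across the border, Scn4b rises furthest (to 361 and 234 CPM beyond 8 steps), and Scnm1 stays level.

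The neural tissue itself was not uniform. Neural spots in the top 10% for exactly 1 of 5 marker lists were summed into layer libraries, with levels in CPM by library size alone, of 111 to 260 spots each. These libraries held 629223 to 4523884 UMIs and were not of equal depth. Of all 136 members, 85 were highest in the same layer of both sections, 33 in granule neuron spots, 21 in spots of deep nuclear and brainstem neurons, 17 in Purkinje spots, 10 in oligodendrocyte spots and 4 in astrocyte spots. Many of these rest on few UMIs. Among the 76 members with at least 50 UMIs in 1 layer library, the counts were 21, 19, 13, 5 and 1 in the same order. The same counts over all genes are not given here. The lead was at least 1.5 times the next layer in both sections for 25 members. Of these, 6 had under 50 UMIs in every layer library (Cacna1f, Kcnip2, Kcnj1, Cacna2d4, Scnn1b and Kcnk13). Kcnk13 was the 1 led by oligodendrocyte spots, at 29.0 and 38.6 CPM from 21 and 44 UMIs. These are descriptions with 1 library a layer and section.

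Granule neuron spots led for Kcnd2, a channel of subthreshold A-type current (256 and 842 CPM in sections 1 and 2, where Purkinje spots had 159 and 354). Scn2a was at 227 and 529 there, against 96.9 and 231. Kcnk3, an acid-sensitive leak channel, was at 103 and 113. Purkinje spots led for Cacna1g, a low-voltage calcium channel (148 and 203, against 93.1 and 57.3 in granule spots), and for Kcnma1, the large-conductance calcium-activated channel (280 and 302). Cacng2, which encodes stargazin, was at 153 and 166 there. Nuclear and brainstem spots led for Scn4b (588 and 542, against 242 and 168 in oligodendrocyte spots), Kcna1 (343 and 341) and Kcnab2 (954 and 1010). Kcnj10 was similar in oligodendrocyte (864 and 644), nuclear (815 and 594) and astrocyte spots (735 and 534) and lowest in granule spots (307 and 115). Members from each of these layers fell in tumor. The log2 fold change was -3.96 ± 0.48 for Kcnd2, -3.65 ± 0.41 for Scn2a, -3.36 ± 0.46 for Kcnma1 and -4.28 ± 0.23 for Cacng2 (edgeR adjusted p from 0.00267 to 0.00988).

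**Figure D5:**
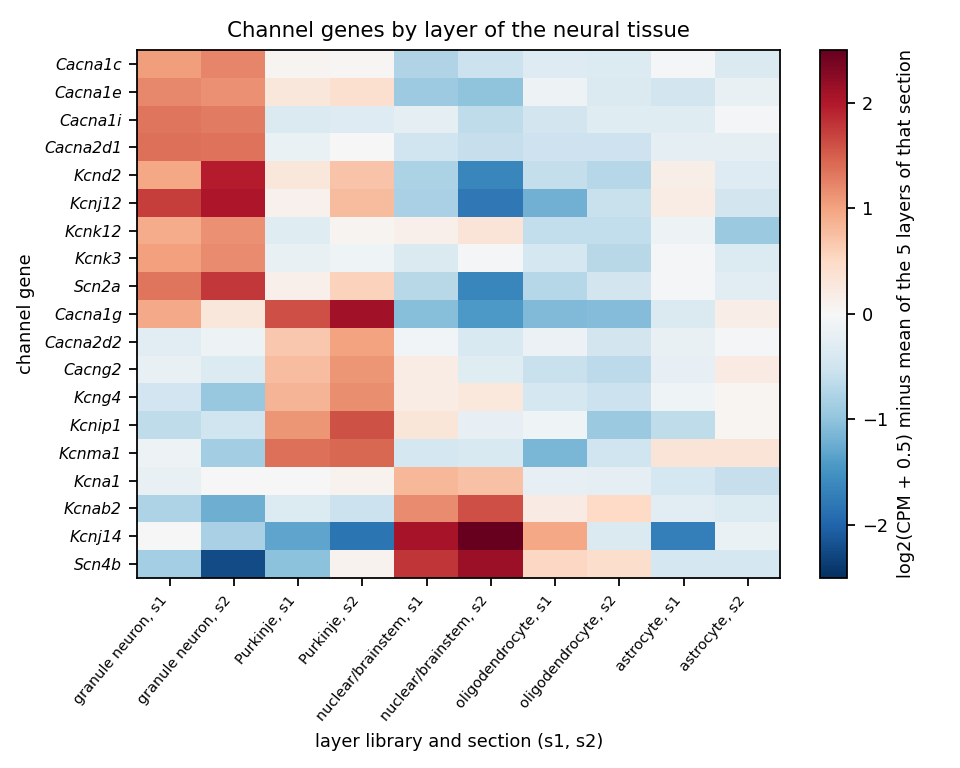
The 19 channel genes with at least 50 UMIs in 1 layer library that led in the same layer of both sections by at least 1.5 times, as log2(CPM + 0.5) in each layer library minus the mean of the 5 layers of that section. Granule neuron spots lead for 9 genes at top, Purkinje spots for 6 and nuclear or brainstem spots for 4 at bottom, in which Scn4b stands out.

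Genes that work with these channels were read from a list of 58 partners: anchors of the axon initial segment and node, other ion channels, pumps, exchangers, intracellular calcium channels and regulators. Of the 56 that could be tested, 35 were called lower in tumor than in neural spots, 7 higher and 14 not called, with a median log2 fold change of -2.76. The share called lower was 62.5%, against 15.8% of all genes, and the share called higher was 12.5%, near the 14.9% of all genes. Those lower included the sodium channel modulator Fgf12 (-4.96), the potassium channel partners Dpp10 (-5.47) and Dpp6 (-4.75) and the neuronal calcium pump Atp2b2 (-5.27). The 7 higher were Ano1, a calcium-activated chloride channel (3.66 ± 0.39), the mechanosensitive channel Piezo1 (3.18 ± 0.21), the inositol trisphosphate receptors Itpr3 (2.53 ± 0.36) and Itpr2 (0.72 ± 0.20), the store-operated calcium entry genes Stim2 (1.33 ± 0.22) and Orai3 (1.12 ± 0.30), and Rest, a repressor of neuronal genes (2.53 ± 0.19). Rest measured 72.6 CPM in tumor, 48.0 at the edge and 13.8 in neural spots of section 1, and 93.1, 57.0 and 14.7 CPM in section 2. Piezo1 and Rest were also called higher at the edge than in neural tissue, by 2.39 ± 0.20 and 1.88 ± 0.19 (edgeR adjusted p = 0.0357 for each). Ano1 had 39.9 CPM in tumor and 4.17 in neural spots of section 1 and 109 and 6.29 CPM in section 2.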

How the data were processed

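Spatial gene expression was measured on fixed, paraffin-embedded cerebellar sections with a probe-based assay. Per the labels, the authors ran Space Ranger 2.1.1 on mm10, and deposited UMI counts for each gene in each spot, not normalized; probe signal does not allow levels to be compared between genes. Spots under 500 UMIs or 10 genes were left out. Each spot with its 6 neighbors was scored by the log2 ratio of tumor to neural marker UMIs and split by Otsu's threshold (scikit-image 0.26.0); patches under 50 spots were dropped, and the edge was all spots within 2 steps of the other class. UMIs were summed into 6 libraries of 4949175 to 39174285 UMIs and tested with edgeR 4.0.16 (TMM, filterByExpr, section as block, 2 residual degrees of freedom), with Benjamini-Hochberg adjustment over all genes; SE is the fold change over the root of F. The replicate number pairs regions of the same mouse; the common dispersion was 0.0911 with it and 0.149 without. Section values are CPM; ratios within a section add 0.5. Code was tested on simulated data. Alternatives included DESeq2 1.42.0. Genes named were those called higher, the 10 lowest with both sections alike, the member with most UMIs of each subfamily, those opposite between sections and those called higher in a comparison with the edge. Other genes given with values were picked after their values were seen. Members and lists were chosen with earlier results of these data known. Some genes that the rule names are not reported here.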

Additional observations from a re-analysis of the deposited data

How the results depend on the processing

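The counts of 79 lower and 3 higher channel genes in tumor against neural spots became 79 and 7 with DESeq2; the other tested alternatives gave 75 to 92 lower and 2 or 3 higher. Raw UMIs per spot, which have no test, moved 33 of 38 named values in tumor against neural spots, 30 in edge against neural and 29 in tumor against edge; 59 of all 136 genes were then higher in tumor than in neural spots of both sections and 56 lower. Edge against neural, 1 higher was left with library size only, without the section block or with an edge of 1 step, and 52 (DESeq2) or 40 (neural list alone) were lower. Tumor against edge, DESeq2 called 2 higher and 58 lower; the block left out or an edge of 3 steps gave 0 higher by edgeR (2 at an unadjusted p below 0.05 in each), and the neural list alone 0 higher and 0 lower (0 and 45 at an unadjusted p below 0.05). The cause was not tested. Without the replicate block, 76 were lower and 2 higher in tumor against neural. The shares over all genes given earlier are those of the main edgeR fit. For tumor against edge, 731 of all genes were called in the main fit. Without the block the number was 711, with an edge of 3 steps 564 and by the neural list alone 0. No other share over all genes is set beside the counts of DESeq2, the edgeR alternatives or raw UMIs per spot. Those counts have no background to be read against, and the shares of the main fit do not serve as one.

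Of 38 genes named with a fold change, none of 61 called values reversed. Values not called did, tumor against neural: Scnn1a to 0.044 with RLE or DESeq2 and 0.0031 without the block, Scnm1 to 0.073 with RLE or DESeq2, Kcna3 to -0.24 by library size only and -0.15 by the neural list alone. Edge against neural: Scnm1 to 0.019 (neural list), Kcna3 to 0.25 and Kcnk5 to -0.0042 (edge of 1 step). Tumor against edge: Kcnk1 to 0.27 without the block; by library size only Cacna2d1 to -0.14, Scnm1 to -0.11 and Kcna3 to -0.13; by the neural list Cacna2d1 to -0.035, Scnm1 to -0.029, Kcna3 to -0.062, Kcnq1 to -0.011 and Kcnj15 to -0.45; with an edge of 1 step Kcna3 to -0.13.

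Leaving out a section leaves no residual degrees of freedom, so it gave folds but no counts. With 2 mice, differences between sections cannot be tested.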
